A study of Zea mays with 45 samples.

Results

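Leaves of Confite, an Andean maize landrace, were set against leaves of the inbred line W23 on 4 of the 45 arrays of a study of maize from high altitudes and its response to ultraviolet-B light (UV-B). The 4 were chosen by their titles, which name Confite leaves and W23, and all belong to a table of 33 arrays. On 2 of them both lines had received UV-B and on the other 2 neither had. Each array was a spotted cDNA array read in 2 colours: RNA of Confite was labelled in one channel and RNA of W23 in the other, and the deposited value of a spot is the log2 of the ratio of the pair. Each treatment was hybridised in both channel orders. Another 4 arrays of the study held leaves of the landrace Mishca against W23 under the same treatments. They served as a source of spread in the model and as a comparison, though not all of them entered every fit. The label of 1 of these gives its partner as b,pl, and some labels elsewhere in the study write W23 b,pl, while those of the Confite arrays write W23.

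Plants of both lines grew in a greenhouse without UV-B for 3 weeks. They were then placed under UV-B lamps fixed 30 cm above them for 8 h, and leaves were collected straight afterwards. The dose was described as a 4-fold rise at 305 nm over a summer field. For the arrays with UV-B the lamps were wrapped in a cellulose acetate filter, which removed light below 280 nm. For the arrays without UV-B the same lamps carried a polyester cover that also held back UV-B. The dose was therefore the same for Confite and W23 on any one array, and an array shows how the lines differ, not how either responds. The labels do not say how many plants were pooled or whether arrays of a treatment came from separate plants or from the same RNA hybridised again.

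UV-B carries enough energy to damage DNA, proteins and the photosynthetic machinery. Plants perceive it through the UVR8 photoreceptor, and flavonoids and other phenylpropanoids that absorb it accumulate in the epidermis. Maize fixes carbon by the C4 pathway, in which mesophyll cells capture carbon dioxide into an organic acid and bundle sheath cells release it again to Rubisco. Genes of these processes, and of the proteins that dispose of excess light, were among those followed here.

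Which RNA forms the numerator of the ratio is not stated in the labels, so no line is said to hold more RNA of a gene, and values are called positive or negative only. The ratio can be read in either of 2 ways, and both are reported. In the first, every array keeps the side as deposited, so that a difference between the lines gives all 4 arrays the same sign. In the second, the ratio follows the channels, so that a difference between the lines changes sign when the channels are exchanged. There the arrays with Confite in channel 1 were multiplied by -1 before averaging. Dye and line cannot be told apart in these arrays without knowing the direction. A ratio holds no level of a gene, and the labelled tissue could not be checked against leaf markers for that reason.

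The 4 arrays differed widely in how much they measured. Without UV-B, 92.6% of the 16928 spots had a value on the array with Confite in channel 2 and 27.43% on the array with Confite in channel 1. With UV-B these shares were 82.73% and 32.04%. Both arrays with Confite in channel 1 were thus blank for most spots, whatever the treatment. Spots of one probe, 3 in most cases, lay close together, with a median SD between 0.039 and 0.056. After averaging, 1557 of 5640 probes were measured on all 4 arrays and 696 on 3, and these 2253 were kept. Another 2558 probes were measured on 2 arrays, of which 2547 were seen only where Confite was in channel 2. The platform annotation names a single gene for 399 probes and 329 genes, and 160 of these genes (172 probes) were among those kept.

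Arrays of the same treatment repeated each other weakly. Across the probes kept, the pair without UV-B correlated at r = 0.24 (1768 probes) and the pair with UV-B at -0.11 (2042 probes). Pairs that shared channel order but not treatment stood at 0.18 for Confite in channel 2 and 0.37 for Confite in channel 1. The array without UV-B in channel 2 and that with UV-B in channel 1, which share neither, correlated at 0.34. With the side as deposited, the array with UV-B and Confite in channel 2 stood apart, since it correlated at -0.09 and -0.11 with the arrays of the other order. In the turned reading correlations across channel orders change sign. The array without UV-B and with Confite in channel 2 is then the one that correlates negatively with both arrays of the other order. With each of 16 sections of the array centred, the same-treatment pairs stood at 0.15 and -0.00 and the same-order pairs at 0.26 and 0.33. The pair without UV-B in channel 2 and with UV-B in channel 1 then stood at 0.27. The pair without UV-B in channel 1 and with UV-B in channel 2 stood at -0.02. These correlations run across probes, which are not independent replicates, and share the array and its layout.

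Signs over the 4 arrays were mixed as well. Of 1556 probes with a sign on every array, 252 (16.2%) had all 4 on one side and 254 (16.32%) had sides that followed channel order. The most frequent arrangement as deposited, with 319 probes, had the array with UV-B and Confite in channel 2 alone on the other side. With the side as deposited, sides that followed treatment were found for 96 probes, 6.17% of those on all 4 arrays. In the turned reading a treatment difference would give opposite sides within each treatment and within each channel order. That arrangement was found for 143 of the 1556 probes (9.19%). When the sum of squares of these probes was split into 4 parts, the part common to all arrays took 35.8%, the part that followed channel order 30.1%, treatment with the side as deposited 15.99% and treatment with the side turned 18.1%. The part common to all arrays and the part that followed channel order were thus of similar size, and each was larger than either part for treatment.

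**Figure D1:**
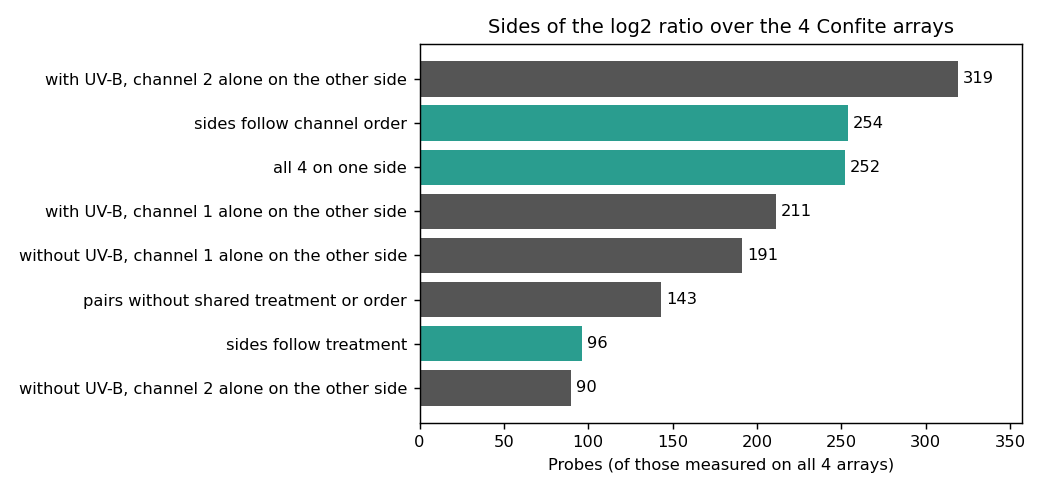
Number of probes (horizontal axis) by the arrangement of signs, as deposited, over the 4 Confite arrays, for probes measured on all 4. Green bars are arrangements that a line difference, the channel order or a treatment difference with the side as deposited would give. In the turned reading a treatment difference would give a grey bar, pairs without shared treatment or order, with 143 probes. The longest bar, 319 probes, has the array with UV-B and Confite in channel 2 alone on the other side, while 252 probes have one side throughout and 254 follow channel order.

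Position on the array moved with the values. When spots were split by their number into 16 consecutive sections, differences between sections held 25.1% of the variance on the array with UV-B and Confite in channel 1, with section medians from -0.41 to 0.43. On the array without UV-B and the same order they held 14.1%, and on the others 8.44% and 7.5%. Centring each section on its median was tried as an alternative. With it 0 probes were called for the line difference or for the UV-B difference, in either reading.

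**Figure D2:**
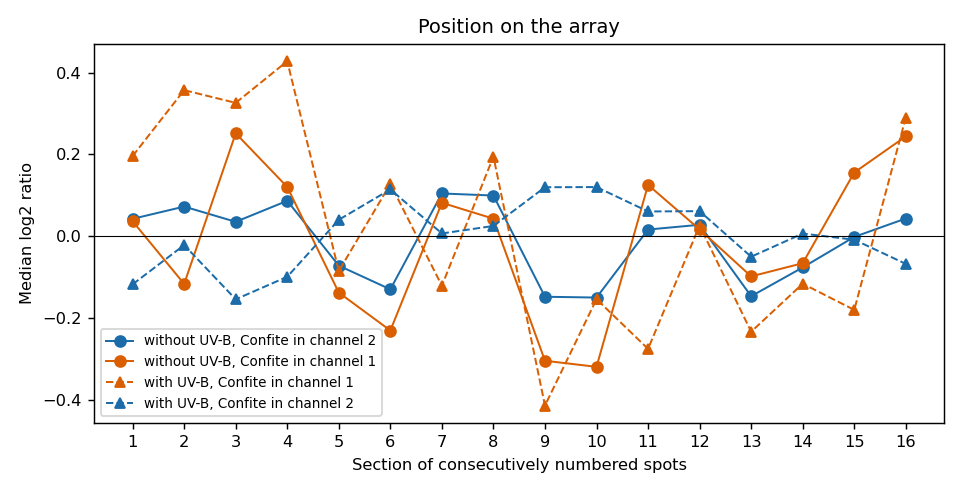
Median log2 ratio (vertical axis) of the probes in each of 16 sections of consecutively numbered spots (horizontal axis), one line per Confite array, colour for channel order and line style for treatment. The arrays with Confite in channel 1, in orange, swing most, between -0.41 and 0.43 on the array with UV-B.

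With the side kept as deposited, no named gene passed the test for a difference between Confite and W23. The largest fitted mean among named genes was that of psbs1, the photosystem II subunit that turns excess light energy into heat. Over all probes 20 of 2183 were called (0.916%), 11 positive (0.504%) and 9 negative (0.412%), and none of the 20 has a gene name here. Of the 167 named probes tested, 12 had an unadjusted p under 0.05, as had 125 of all 2183.

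The psbs1 probe stood at 0.90 without UV-B and at 0.34 with UV-B where Confite was in channel 2, and at 1.13 with UV-B where Confite was in channel 1. It was blank on the fourth array. All measured values were positive, and its triplicate spots had an SD of at most 0.07 on each array. The fitted mean was 0.89 (SE 0.30, n = 3 arrays, limma with Benjamini-Hochberg adjusted p = 0.181). With the side as deposited every SE came from 1 variance shared by all probes, so it does not show the spread of a single probe. The probe passed when the Confite arrays were fitted alone (0.87, adjusted p = 0.0208) and when arrays were weighted by their quality (0.95, adjusted p = 9.2e-04), and missed the threshold under the other alternatives that could be fitted. With sections centred the 3 values remained positive, at 0.85, 0.46 and 0.93. In Mishca the same probe read 0.60 without UV-B and 0.13 and -0.05 with it, positive on 2 of the 3 distinct arrays.

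The other genes with one side on every measured array are given as a description. The gene hsp70-4, for a heat shock chaperone, read 0.87 and 0.31 without UV-B and 0.73 and 0.19 with it, with Confite in channel 2, 1, 1 and 2 in turn (mean 0.53, SE 0.22, n = 4 arrays, limma adjusted p = 0.624). The nucleosome assembly gene nfa104 lay between 0.12 and 0.74 (mean 0.39, SE 0.22). LOC542140, to which no role is given here, was above 0.6 on both arrays with Confite in channel 2 (0.63 and 0.75) and near 0 on the others (0.02 and 0.08). Its mean of 0.37 rested mainly on the arrays with Confite in channel 2.

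On the negative side the cystatin gene psei2, for an inhibitor of cysteine proteases, had the largest values. It read -1.65 with UV-B in channel 1 and -1.20 with UV-B in channel 2, but -0.10 without UV-B in channel 2 (fitted mean -0.69, SE 0.30, n = 3 arrays, limma adjusted p = 0.64). The value of -1.65 came from 1 spot, since the other spots of that probe were blank on that array. The methyl-CpG-binding gene mbd111 was at -1.01 and -0.76 without UV-B and at -0.65 with it (fitted mean -0.65, SE 0.30, n = 3, limma adjusted p = 0.682). Its second probe, measured on 2 arrays only, was at 0.48 and 0.03.

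The protein disulfide isomerase gene PDIL1-1, whose product helps proteins to fold in the endoplasmic reticulum, read -0.55, -0.58 and -0.63, an SD of 0.04 over 3 arrays, where the middle value, with UV-B in channel 1, came from 1 spot. Its fitted mean was -0.44 (SE 0.30), it was not called, and with sections centred the mean was -0.28. DWF1, a gene of brassinosteroid synthesis, read -0.63 and -0.16 without UV-B and -0.43 and -0.86 with it, in the same order as hsp70-4 (mean -0.52, SE 0.22, n = 4 arrays, limma adjusted p = 0.64). None of these 8 genes passed after adjustment over all 2183 probes in the model described here.

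Having one side on every measured array was not rare. It held for 38 of the 172 named probes, 14 positive and 24 negative, against 20.9% of all probes kept (7.81% positive and 13.1% negative), so that the named genes stood near the background.

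Of the 20 called probes 15 had one side on every measured array, and 15 were measured on all 4. Probe 2168 had the largest fitted mean, at 1.90 (SE 0.30, n = 3 arrays). Its values were 2.70 without UV-B and -0.43 with UV-B in channel 2, and 1.53 with UV-B in channel 1. Their plain mean was 1.27, below that of probe 2191. Their SD was 1.58, a spread that the SE from the shared variance does not reflect. Probe 2191 followed at 1.38 (SE 0.22), with 1.92, 1.69 and 1.93 on the first 3 arrays and -0.01 on the array with UV-B and Confite in channel 2. On the negative side probe 3052 had a fitted mean of -1.19 (n = 3 arrays, plain mean -0.92). Probe 3377 stood at -1.04, from -1.16, -1.17, -1.18 and -0.65. Probe 3377 was thus clearly negative in both channel orders and both treatments.

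The count of 20 was not stable. It was 0 with sections centred, although the 20 probes all stayed on their side at an unadjusted p under 0.05, and 0 without moderated variances. It fell to 0, 2, 2 and 4 when the array without UV-B in channel 2, without UV-B in channel 1, with UV-B in channel 1 and with UV-B in channel 2 was left out. In 15 of the 20 the value farthest from 0, on either side, was on an array with Confite in channel 1. Those arrays had the wider spread over spots, with SDs of 0.48 and 0.45, against 0.33 and 0.33 for Confite in channel 2. The share of all probes kept with this trait was not counted, so the 15 are not set against a background.

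With the side turned, the gene that passed was pdk1, which encodes pyruvate orthophosphate dikinase, the mesophyll enzyme that regenerates the acceptor of carbon dioxide in C4 photosynthesis. Its log2 ratio was 1.72 without UV-B and 1.05 with UV-B where Confite was in channel 1, and 0.07 and -0.32 where Confite was in channel 2. The groups of channel order did not overlap, and the treatments did, though the share of all probes with such groups was not counted. This describes the values behind the call and adds no support to it. The turned mean was -0.76 (SE 0.18, n = 4 arrays, 1.69-fold, limma adjusted p = 0.0372). Without turning, the mean of the same values was 0.63 (SE 0.22, adjusted p = 0.276). In all 7 of 2183 probes (0.321%) were called, all 7 on the negative side, and 166 had an unadjusted p under 0.05. The other 6 carry no gene name. Of the 7, 3 had one side on every array once turned. The gene pdk1 was not among these, since its value of 0.07 in channel 2 was positive like those in channel 1. The largest mean was that of probe 4444 at -0.86 (SE 0.19), followed by probe 1565 at -0.85. Both were also called as deposited, at 0.93 and 0.91, among 3 probes called in both readings. The count of 7 became 29 without the array without UV-B and with Confite in channel 2, and 0 without any one of the other 3.

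The call on pdk1 was lost under 11 alternatives. Its adjusted p was 0.705 with sections centred, where the turned mean was -0.62, and 0.593 without centring. It was 0.997 when the array without UV-B and with Confite in channel 1 was left out, where the turned mean was -0.38. In Mishca the probe lay between -0.15 and 0.11 on all 3 distinct arrays.

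Several other genes of carbon fixation lay the same way as pdk1, above 0 where Confite was in channel 1 and lower where it was in channel 2, with none of them called. The Rubisco small subunit gene ssu1 read 0.68 and 0.75 in channel 1, without and with UV-B, against -0.10 and -0.79 in channel 2 (turned mean -0.58, SE 0.17, n = 4 arrays, limma adjusted p = 0.143). The gene rca1, for the activase that keeps Rubisco active, read 0.72 and 0.37 against 0.02 and -0.62 (turned mean -0.42, SE 0.17, adjusted p = 0.451). The malic enzyme gene me4, named here with the bundle sheath markers, read 0.71 and 0.43 against 0.07 and -0.32 (turned mean -0.35, SE 0.18, adjusted p = 0.657). In all 4 genes the array with UV-B and Confite in channel 2 held the lowest value and both arrays with Confite in channel 1 held the highest. The 3 beside pdk1 were put together here because they lay this way. Of the 7 carbon fixation probes kept, 5 (71.43%) were higher on the arrays with Confite in channel 1, beside 54.68% of all probes kept.

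The list of carbon fixation and the C4 cycle as a whole had 7 of 13 genes measured on at least 3 arrays. Its median on the arrays with Confite in channel 1 was 0.69 without and 0.40 with UV-B, and on those with Confite in channel 2 it was 0.02 and -0.32, whereas all probes kept had medians between -0.05 and 0.00. The turned median of its 6 tested probes was -0.39, against -0.03 over all 2183, and 1 of the 6 passed, beside 0.321% of all probes. With sections centred the median of the list was -0.21 and pdk1 was not called. Of the cell type markers, pdk1 stands for mesophyll and ssu1, rca1 and me4 for bundle sheath, and a part of cell types in these values was not tested. The other mesophyll marker, Cab-m7, was at 0.34 and -0.30 in channel 2 and -0.07 and 0.67 in channel 1.

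Not every member took this course. The malate dehydrogenase gene mdh5 was at 0.66 and 0.01 in channel 2 and 0.35 in channel 1, positive throughout. The plastid oxoglutarate and malate transporter gene pOMT1 read -1.94 without UV-B in channel 1, from a single spot, and between -0.15 and 0.03 elsewhere.

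Genes outside photosynthesis took the same arrangement. The alpha-tubulin gene tua4 read 0.73 and 0.62 in channel 1 and -0.53 and -0.67 in channel 2. Its 4 turned values had an SD of 0.08, the turned mean was -0.63 (SE 0.17, n = 4 arrays), and with a limma adjusted p of 0.0788 it missed the threshold. With sections centred its turned mean was -0.46. The cysteine protease gene ccp1 read 1.06 and 0.34 against -0.06 and -0.90 (turned mean -0.59, SE 0.18, adjusted p = 0.149). A second cysteine protease gene, see1, which is induced in senescing leaves, was at -0.69 and -0.71 in channel 2 and 0.31 in channel 1. The channel orders lay less far apart in tua4 than in pdk1, while the values of tua4 repeated more closely within an order.

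On the opposite side no gene was called. The sulfite reductase gene sir, of sulfur assimilation, read 0.13 and 0.63 in channel 2 and -0.49 and -0.34 in channel 1 (turned mean 0.40, SE 0.17, n = 4 arrays, limma adjusted p = 0.535). The asparagine synthetase gene asn1 agreed over its probes: one read 0.12 and 0.41 in channel 2 and -0.20 and -0.42 in channel 1, and the other 0.53 in channel 2 and -0.15 and -0.58 in channel 1. The starch synthase gene du1 was at 0.26 and 0.45 against -0.38, the last from 1 spot. LOC541702, with no role given here, was at 0.28 against -0.30 and -0.49, a fitted turned mean of 0.44 that became 0.27 with sections centred. Another probe of it, on the arrays with Confite in channel 2, was at 0.75 without UV-B and -0.03 with it.

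Sides that followed channel order on every measured array were found for 29 of the 172 named probes, 9 positive and 20 negative, against 18.6% of all probes kept (7.19% positive and 11.4% negative), again near the background.

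**Figure D3:**
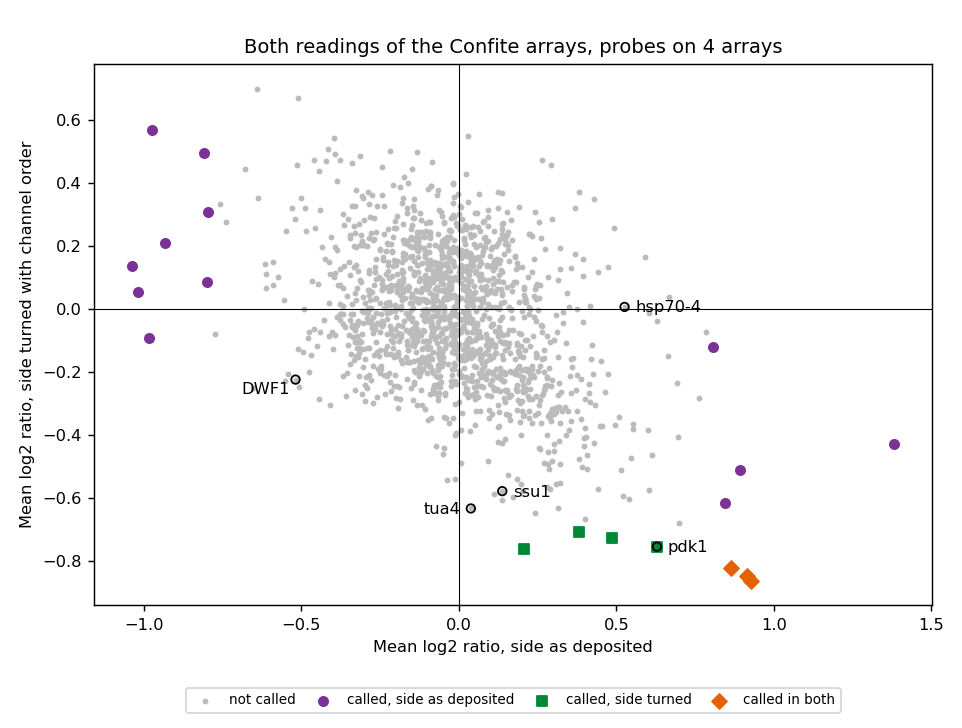
Mean log2 ratio over the 4 Confite arrays with the side turned (vertical axis) against that with the side as deposited (horizontal axis), one point per probe measured on all 4 arrays. Coloured points passed the test in one reading or both, and pdk1 at 0.63 and -0.76 is the only called gene with a name. The gene hsp70-4 lies along the horizontal axis, and tua4 and ssu1 lie near the vertical one. DWF1, at -0.52 and -0.22, lies off both.

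**Figure D4:**
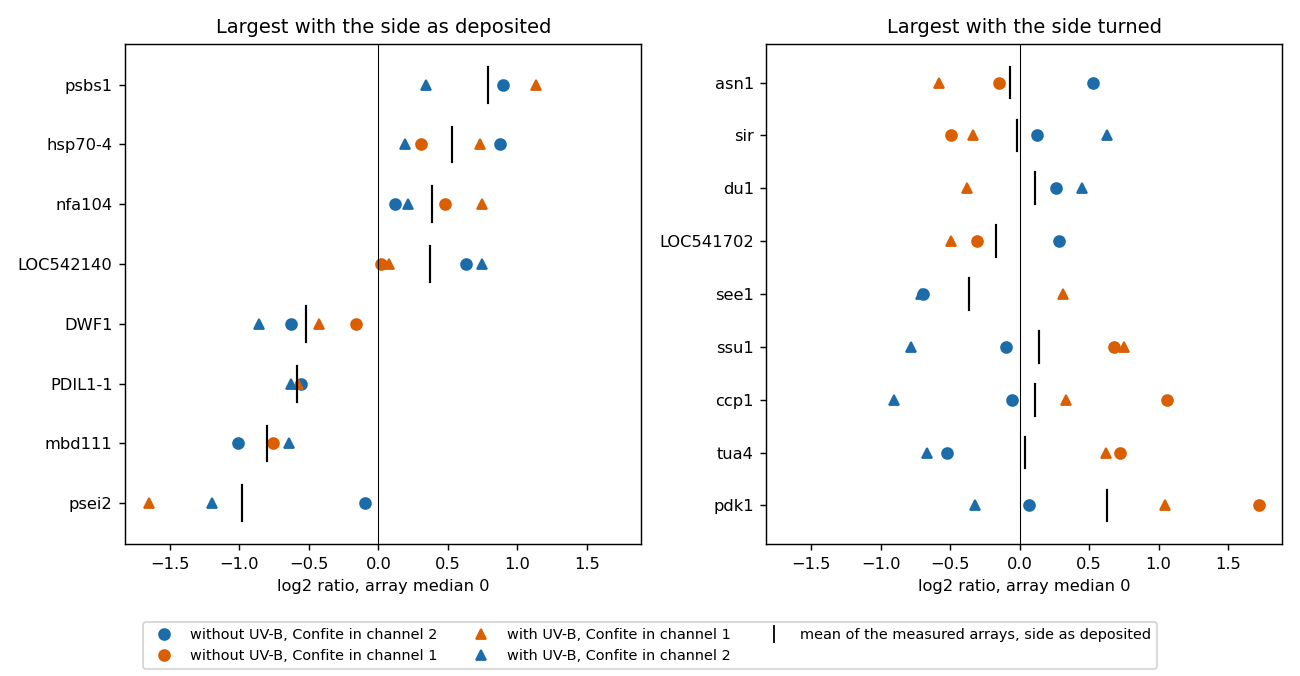
Log2 ratio (horizontal axis, array medians at 0) on each Confite array for the named genes with the largest means in each reading. Symbols give treatment and colours give channel order, and bars mark the mean of the measured arrays. On the left all points of a gene share a side, as with psbs1 between 0.34 and 1.13; on the right orange and blue points part, as with tua4 at 0.62 and 0.73 against -0.53 and -0.67.

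The other gene lists held no called member in either reading. Their sizes, medians and examples are given beside the medians of all probes tested, which were -0.02 with the side as deposited and -0.03 with the side turned. Of the 2183 probes 1177 were negative as deposited and 1192 when turned, more than were positive in both cases.

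Among genes of the photosynthetic light reactions, 4 of 7 were measured on 3 or 4 arrays. Besides psbs1 and Cab-m7 these were pgr5, of cyclic electron flow, which stayed between 0.09 and 0.21 on 3 arrays, and the leaf ferredoxin-NADP reductase gene L-FNRI. The latter was negative on 3 arrays, at -0.49, -0.89 and -0.59, and at 0.80 on the array with UV-B and Confite in channel 1. The median of the list on that array was 0.80, against -0.07 to 0.22 on the other 3.

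Genes that act on chromatin gave 13 of 19, with a turned median of -0.14 and 10 of 13 on that side. The gene sgb102, to which no role is given here, read 1.13 and 0.90 in channel 1 and -0.10 and -0.15 in channel 2. The bromodomain gene brd103 read 0.36 and 0.42 against -0.03 and -0.80. The maintenance DNA methyltransferase gene met1 was negative on 3 arrays (-0.40, -0.66 and -0.44) and at 0.25 on the array with UV-B and Confite in channel 1.

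Genes of the cytoskeleton and cell wall gave 10 of 14, with 9 of 10 below 0 in the turned reading and a turned median of -0.15. The profilin gene PRO5 had the largest mean of the list as deposited, at -0.51, from -0.56, 0.20, -0.71 and -0.95. The cellulose synthase genes cesa5, cesa6 and cesa8 had means of -0.19, 0.09 and -0.07. The 3 measured genes of the translation machinery also lay on the negative side when turned, between -0.31 and -0.25, with the elongation factor gene elfa2 at 0.66 and 0.63 in channel 1 against 0.31 and -0.26.

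The heat shock and chaperone list split. Its 3 protein disulfide isomerase genes had fitted means of -0.44 (PDIL1-1), -0.38 (PDIL5-4) and -0.19 (PDIL1-2), while hsp70-4 was at 0.53 and the calreticulin gene crt2 at 0.07. Proteases and their inhibitors had a median of -0.12, with 5 of 6 on the negative side. The 2 cystatins beside psei2, psei1 and psei3, had means of -0.11 and -0.01.

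Aquaporins, the water channels of plasma membrane and tonoplast, were close to 0 in both readings: 12 probes of 8 genes had medians of -0.06 and -0.02. The tonoplast genes TIP4-1 (-0.19, -0.87 and -0.07 on 3 arrays) and TIP1-1 were negative on one probe each, but the second probe of TIP1-1 ranged from -0.37 to 0.40. Genes of sucrose, starch and hexose metabolism (7 of 15) had medians of -0.11 and 0.01. Nitrogen assimilation (5 of 8 genes) had medians of -0.02 and 0.10. There the nitrite reductase gene NIR read 0.75 and 0.55 in channel 1 and 0.16 and -0.29 in channel 2. Another NIR probe, on the arrays with Confite in channel 2, was at 0.12 and 0.44, on the other side from the first with UV-B. The nitrate transporter gene NRT1.2 read -0.62 and -1.11 without UV-B but -0.07 and 0.22 with it.

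Few genes that respond to light stress or wounding reached 3 arrays. Of antioxidant and glutathione genes 4 of 11 did, with a median of 0.07: the peroxiredoxin gene PER1 at -0.31, the ferritin gene fer1 at 0.14 and the glutathione transferase genes gst31 and gst28 at 0.01 and 0.22. Of defence and wound genes 2 of 8 did, the allene oxide synthase gene aos1 at 0.06 and hir1 at 0.12. A second hir1 probe, on the arrays with Confite in channel 2, stood at -0.52 and -0.41. Of hormone, cold and drought genes 3 of 6 did, all with negative means. Of signalling genes 4 of 10 did, with a median of 0.08. Of phenylpropanoid genes only 1 of 4 did, the 4-coumarate ligase gene 4CL, at 0.19, 0.04, 0.64 and -0.03 in the order used above.

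Genes known mainly from seed and pollen were spread around 0. The storage globulin gene globulin-1 lay between -0.34 and 0.24, and the pollen expansin gene EXPB9 between -0.36 and 0.42. The values of cDNA probes can also come from close relatives of the named gene, and of the 12 genes with several probes kept, 7 had probes with means on opposite sides.

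**Figure D5:**
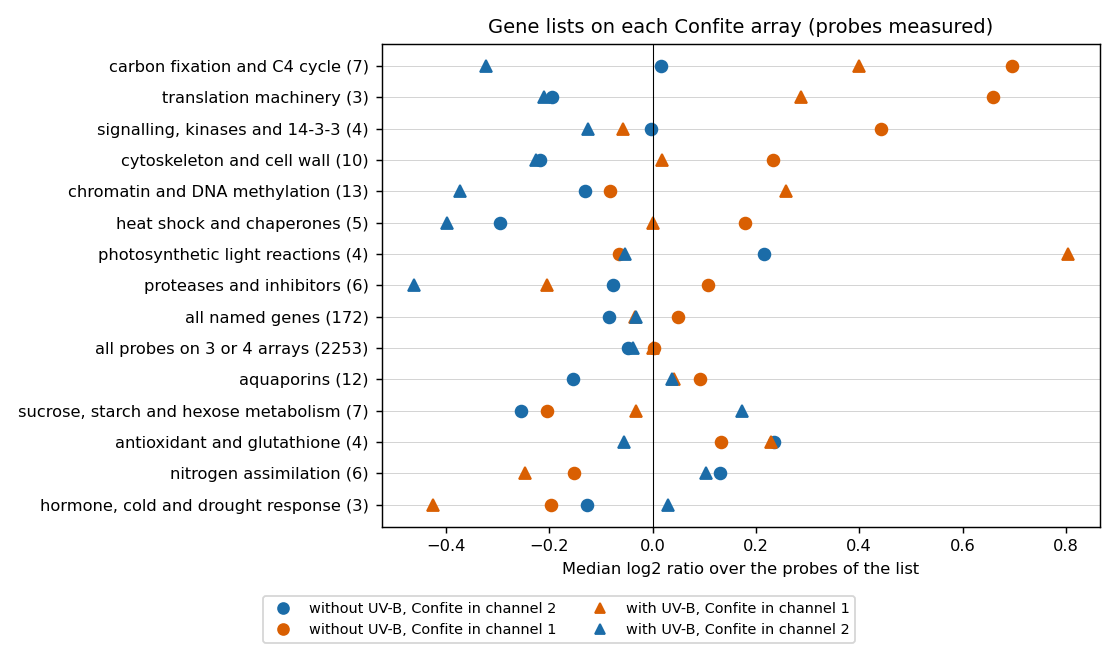
Median log2 ratio (horizontal axis) over the measured probes of each gene list on each Confite array, with the number of probes in brackets. Lists are ordered by their median in the turned reading. In carbon fixation the arrays with Confite in channel 1, in orange, stand at 0.69 and 0.40 and those with Confite in channel 2, in blue, at 0.02 and -0.32, while all probes together lie near 0 on every array.

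The comparison of the arrays with and without UV-B asks whether the gap between Confite and W23 changed after 8 h under the lamps. No named gene passed in either reading. With the side as deposited 1 probe of 2183 was called (0.0458%), and with the side turned 7 were (0.321%), every call on the negative side and on a probe without a gene name. The side of the calls as deposited was not stable, since 4 other probes, all positive, were called with the Confite arrays alone, and 7 positive and 2 negative with array weights. At an unadjusted p under 0.05 there were 50 and 76 probes. The SE of such a difference was 0.45 as deposited and 0.35 turned for a probe on 4 arrays.

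The probe called in both was probe 2168, at 2.70 without UV-B and -0.43 with UV-B in channel 2, a fitted difference of -2.69 (SE 0.60, n = 3 arrays, limma adjusted p = 0.0139). It was blank on one array without UV-B, so that 1 array stands for that treatment and is taken to vary like the others. The same holds for probe 1464 and psei2. In the turned reading the difference of probe 2168 was -3.49 and that of probe 1464 was -2.39. The turned count of 7 was 13 without the array without UV-B in channel 2, 4 without that without UV-B in channel 1, 1 without that with UV-B in channel 1 and 0 without that with UV-B in channel 2, and the call as deposited was lost without any of the 4. Among named genes the largest fitted difference as deposited was that of psei2, at -1.48 (SE 0.60, limma adjusted p = 0.9995), from the same 3 values given above. That of pOMT1 was 1.05 (SE 0.45) and rests on the single spot at -1.94. Both were chosen after their values were seen.

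Treatments can also be set side by side within a channel order, with 1 array each and no test. With the side as deposited, rca1 was lower with UV-B than without in both orders, at -0.62 against 0.02 in channel 2 and 0.37 against 0.72 in channel 1. In ssu1 this held in channel 2 (-0.79 against -0.10) and not in channel 1 (0.75 against 0.68). In the turned reading the direction in channel 1 is reversed. There rca1 differs in direction between the orders, and ssu1 is lower with UV-B in both.

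Confite was also compared with Mishca, since W23 stands against both. This was done with the side as deposited only, because the channel order of the Mishca arrays without UV-B is in doubt. Of 2089 probes 0 were called (0%) with limma, and 47 had an unadjusted p under 0.05. The arrays of Mishca without UV-B were 2 columns that equal each other up to a constant, although their labels give opposite channel orders, and counted as 1. The difference between the landraces was 0.57 for psbs1 (SE 0.40), 0.66 for hsp70-4 (SE 0.35) and 0.60 for pdk1 (SE 0.35), with adjusted p of 0.996 for each. That no probe passed does not show that the landraces are alike.

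Some genes of interest for UV-B were measured only where Confite was in channel 2. PAL1, for phenylalanine ammonia-lyase at the entry to the phenylpropanoid pathway, stood at 0.09 both without and with UV-B, with spot SDs of 0.07 and 0.09. In Mishca PAL1 was at 0.79 without UV-B and at 0.01 and -0.10 with it. The light-harvesting gene lhcb5 was at 0.43 without and 0.22 with UV-B. The gene opr6, of the oxophytodienoate reductases, a family that takes part in jasmonate synthesis, was at 0.17 and -0.01 in Confite. In Mishca it read, as deposited, 1.53 without UV-B, where the channel order is in doubt. With UV-B it read 1.97 with Mishca in channel 1, a value that would change sign with the side turned. With 1 Confite array per treatment these genes were not tested.

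The thiamine synthesis gene thi2 had 3 probes. One was on all 4 arrays at -0.20, -0.48, 0.18 and -0.09 (mean -0.15, SE 0.22), another on 3 at 0.15, 0.13 and -0.13 (fitted mean 0.10, SE 0.30, and 0.31 with sections centred), and the last on the arrays with Confite in channel 2 at -0.02 and -0.86. The phosphohexose isomerase gene phi1 was even over the arrays, at -0.25, -0.20, -0.22 and -0.14 (mean -0.20, SE 0.22, SD 0.05 over 4 arrays). Its 2 other probes, on the arrays with Confite in channel 2, were at 0.08 and 0.32 and at -0.10 and 0.04.

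In all, 178 named probes of 154 genes were seen on both arrays with Confite in channel 2 and on no other. In 85.4% of them both values were within 0.5 of 0, and the same share over all probes seen only on these arrays was not counted. The sides matched in 99 of the 178, 50 positive and 49 negative, or 55.6%, beside 54.6% of all 2547 such probes. The arrays correlated at r = 0.19 over these 2547 probes. One gene had a value far from 0, the chitinase gene chn1, singled out after its values were seen. It read 0.00 without UV-B and -3.15 with UV-B, the latter over 3 spots with an SD of 0.05. The only Mishca array that measured it had UV-B and Mishca in channel 1, and read 0.80 as deposited. That order is opposite to the order of the Confite arrays, so the Mishca value would change sign with the side turned. The readings cannot be told apart on the Confite values of these probes, since the channel order is the same on both Confite arrays.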

How the data were processed

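The deposited values are log2 ratios per spot, made by the authors from 2-colour scans. Per the series' design text, weak spots were left out and models of log2 intensity were used; the scaling behind the deposited log2 ratios is not given in the sources used here. Blank spots were taken as missing. Spots were averaged per probe by their numbering (8 blocks of 2116, 705 probes of 3 spots, 1 spot per block left out) and arrays were centred on their median. Probes on at least 3 Confite arrays entered a linear model with limma 3.58.1 in R 4.3.3, with a coefficient per line and treatment and a shared channel term. Mishca arrays added spread and the channel term. In the turned reading only the Mishca arrays with UV-B entered, since the repeated column without UV-B has no channel order to turn by. Fitted means of probes on 3 arrays include these terms and can differ from the plain mean. Of 2253 probes kept, 2183 had enough values to estimate a spread and were tested, two-sided, with Benjamini-Hochberg adjustment over all of them and calls at an adjusted p under 0.05. With the side as deposited the estimated prior degrees of freedom were infinite, so all probes shared one variance. P-values measure the spread between arrays, with the side as deposited that shared by all probes. This spread may be technical, and precision is limited by how few arrays there are. Replicate numbers were checked: same-numbered arrays deviated in opposite directions (r = -0.25 over 1557 probes) and were not treated as pairs; numbers and channel orders are crossed between the treatments, so this compares arrays of opposite channel order. Gene names come from the platform annotation and RefSeq symbols of Zm-B73-REFERENCE-NAM-5.0 (314 of 329 genes matched), used for names only. Genes named are, per reading and side, up to 8 called genes or, with fewer than 4 called, the 4 with the largest means of one side throughout, and 7 fixed genes; examples within lists were chosen after their values were seen. The members, lists and tests were chosen with earlier results of these data known.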

Additional observations from a re-analysis of the deposited data

Results flagged for a closer look

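Among the 119 named probes measured on all 4 arrays, 7 (5.88%) had a single array far from the other 3, which chance alone gives for about 1 in 20. The distant array had UV-B and Confite in channel 2 for SPT16 at 0.121, the others lying at -0.01, -0.01 and 0.01, and for the histone deacetylase gene HDA108 at 0.469. It had UV-B and Confite in channel 1 for LOC677667 at 0.891 and for the aquaporin gene NIP2-3 at -0.351. It had no UV-B and Confite in channel 1 for LOC541680 at 0.315, for the ribosomal protein gene RPL27A at 0.729 and for pOMT1 at -1.94, the last from 1 spot. The 3 spots of SPT16 on its distant array had an SD of 0.09, close to the size of its gap.

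In 5 of these 119 probes the arrays with UV-B lay on one side and those without on the other, beside 6.17% of all probes on 4 arrays, and the difference was not tested by this count. The mean with UV-B minus that without was 0.0767 for SPT16, 0.631 for the sucrose phosphate synthase gene sps1, -0.814 for ltk1, -0.435 for LOC606463 and 0.348 for LOC732827. With sections centred SPT16 read -0.05 and -0.05 without UV-B and -0.19 and 0.24 with it, so its sides no longer followed treatment. None of the 5 probes passed the fit, with an SE of 0.45 for each. The fit of the UV-B difference called 1 probe with the side as deposited and 7 with the side turned, all without a gene name.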

How the results depend on the processing

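With 4 arrays, 2 of them mostly blank, the counts of called probes moved with nearly every choice. For the reading as deposited, the turned reading, and the UV-B difference as deposited and turned, in that order, the main counts were 20, 7, 1 and 7. They were 14, 0, 0 and 0 without centring, 0, 0, 0 and 0 with 16 sections centred, 9, 0, 1 and 1 with arrays scaled to equal spread, and 4, 0, 0 and 0 with no channel term. They were 55, 10, 4 and 4 with the Confite arrays alone, 11, 0, 0 and 0 on probes of all 4 arrays, 89, 40, 9 and 17 with array weights, 0 in each without moderation, 20, 1, 1 and 2 with probes averaged by gene, and 0 in each when the repeated Mishca columns counted by their labels. Leaving out 1 Confite array gave 0 to 4, 0 to 29, 0 to 0 and 0 to 13; the 29 came without the array without UV-B and with Confite in channel 2. Same-numbered arrays deviated in opposite directions (r = -0.25), so the numbers only name them; with the replicate number as a block the counts were 15, 5, 0 and 2. A crossed pairing, added after the data were seen, joins arrays of the same channel order and gave 50, 26, 4 and 4. Confite minus Mishca stayed at 0 except for 1 with array weights and 1 with the crossed pairing; it could not be fitted on Confite arrays alone. Dropping the filter changed no count, since probes on 2 arrays leave no error estimate. Sides following channel order rose from 16.32% to 19.44% of probes with sections centred. Of 346 values of named genes under alternatives 307 kept their call and, where uncalled, moved by less than the SD between arrays. Another 15 uncalled values moved by more than that, 11 values lost a call, all pdk1, 13 gained one, and 0 called values changed sign. The causes were not tested.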
